A study of Mus musculus with 26 samples.

Results

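The metallothionein, thioredoxin and heme oxygenase group comprised 7 genes of metal binding and antioxidant defence: Mt1, Mt2, Txn1, Txnip, Hmox1, Sod2 and Cat. Members were taken by symbol, as every probe set that the probe-to-gene table assigned to 1 of these genes and to no other. That gave 9 probe sets of 12422 on the array after control probe sets were left out, since Txnip and Cat had 2 each, and all 9 passed the filter on dim probe sets. The 7 genes were among 8251 named on the array and 5564 tested.

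Metallothioneins are small cysteine-rich proteins that hold zinc and copper and take up reactive oxygen, and their genes are induced by zinc through the factor Mtf1, by glucocorticoids and by inflammatory cytokines. Thioredoxin, encoded by Txn1, reduces disulfides in other proteins, while Txnip binds and inhibits it and is itself induced by glucose through Mlx and its partners. Hmox1 breaks heme down to biliverdin, iron and carbon monoxide, Sod2 turns superoxide in mitochondria into hydrogen peroxide, and catalase, encoded by Cat, breaks that peroxide down in peroxisomes.

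RNA came from mouse heart after transverse aortic constriction (TAC), an operation that narrows the aortic arch and raises the pressure the left ventricle works against, or after sham surgery. There were 5 TAC and 4 sham arrays at 48 h, 4 TAC and 4 sham arrays at 10 d, and 5 TAC and 4 sham arrays at 3 wk, 26 in all. All were total RNA on 1 array type (MG_U74Av2), and the part of the heart, strain, sex and age of the mice are not given in the labels used here. Whether each array stands for its own animal is not stated in the labels, so p-values measure the spread between these arrays, which may be technical.

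Array medians were 741 to 1031 intensity units, pairs of arrays within a group had r = 0.922 to 0.961 over probe sets, and precision is limited by how few arrays there were. The tissue label was checked on 9 cardiac muscle genes, which had summed intensities of 664439 to 1524934 on single arrays. None of these genes was at 0 on every array of a group. Scan days are known for all but sham replicates 1 and 4 at 3 wk. All 48 h arrays shared 1 scan day, TAC replicate 4 at 10 d was scanned apart from the other 7 arrays, and at 3 wk TAC replicates 4 and 5 were scanned apart from TAC replicates 1, 2 and 3 and sham replicates 2 and 3. No known scan day held more than 1 duration. The deposited intensities were compared on the log2 scale with limma in 1 model over all 26 arrays, and a call is a Benjamini-Hochberg adjusted p under 0.05 over 7297 probe sets. Differences are TAC minus sham in log2 units. Fits with scan day as a term left out sham replicates 1 and 4 at 3 wk. The 3 wk difference then rests on TAC replicates 1, 2 and 3 and sham replicates 2 and 3.

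Mt2 and Mt1 lie side by side on chromosome 8 with 0 annotated genes between them. Promoters from RefSeq (GRCm38.p6) were found for 6 of the 7 members. The 250 bases before the annotated start are shown for Mt2, Mt1 and Txnip. Of the 6 promoters, theirs hold the core of a metal response element, the site bound by Mtf1. These genes were chosen for display after the values were seen. Their probe sets of highest mean varied together from array to array, and the other Txnip probe set did not follow. Whether the cores have any part in that was not tested. Capitals mark that core, TGCACNC or TGCGCNC on either strand. Mt2, at chr8:94172368-94172617 on the plus strand, holds 3 cores, Mt1, at chr8:94178839-94179088 on the plus strand, holds 1, and Txnip, at chr3:96557707-96557956 on the plus strand, holds 1.
Mt2: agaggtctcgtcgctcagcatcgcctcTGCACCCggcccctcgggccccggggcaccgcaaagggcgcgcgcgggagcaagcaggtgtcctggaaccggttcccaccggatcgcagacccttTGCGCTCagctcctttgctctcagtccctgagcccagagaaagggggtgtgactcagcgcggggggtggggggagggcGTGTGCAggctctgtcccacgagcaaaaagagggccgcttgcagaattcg
Mt1: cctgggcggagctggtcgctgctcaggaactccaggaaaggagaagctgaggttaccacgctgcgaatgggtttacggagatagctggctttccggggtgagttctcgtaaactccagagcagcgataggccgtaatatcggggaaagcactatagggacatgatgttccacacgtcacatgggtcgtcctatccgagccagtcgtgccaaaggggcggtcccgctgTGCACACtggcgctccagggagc
Txnip: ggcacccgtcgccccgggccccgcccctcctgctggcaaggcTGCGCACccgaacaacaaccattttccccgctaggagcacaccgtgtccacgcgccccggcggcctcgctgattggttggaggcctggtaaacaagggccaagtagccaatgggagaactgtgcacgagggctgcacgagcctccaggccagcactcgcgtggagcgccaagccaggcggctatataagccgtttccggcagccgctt

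At least 1 such core stood in 21.4% of 32851 promoters of this length, and 3 or more in 1.26%, so 1 core is common. The Mt2 cores start 223, 128 and 50 bases before the annotated start, and the Mt1 core 23 bases before it. The Mt1 window lies before the start the annotation gives, which may not be the start used in heart. Other starts and the bases after it were not searched, so the Mt1 and Mt2 counts are not a comparison of the promoters in use. Mt2 also holds 1 antioxidant response element core (TGACNNNGC), TGACTCAGC, a motif found in 10.2% of promoters. Txnip holds 4 matches to CACGNG, part of the carbohydrate response element through which Mlx acts, at 160, 85, 74 and 52 bases before the start, and 3 or more of these were found in 2.54% of promoters. No metal response element core was found in the windows of Txn1, Sod2 or Cat. These matches describe letters in the reference sequence, and binding was not measured.

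Across the 3 durations Mt2 was the member with the highest TAC intensities relative to sham, 1.84 to 1.94 times sham at single durations, and it was called at 10 d. Txn1 was called higher at 10 d. No other member was called in TAC against sham at 48 h, 10 d or 3 wk. At 48 h 0 of 9 member probe sets were called by limma, where 0.0548% of all probe sets were (450 had an unadjusted p under 0.05). At 10 d the calls were 2 of 9, both higher, where 4.87% of all probe sets were called and 2.91% were called higher. At 3 wk they were 0 of 9, where 4.73% were called (1433 at an unadjusted p under 0.05, among them Mt2, Mt1 and Sod2). The plot of TAC minus sham by probe set sets the members beside each other.

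**Figure D1:**
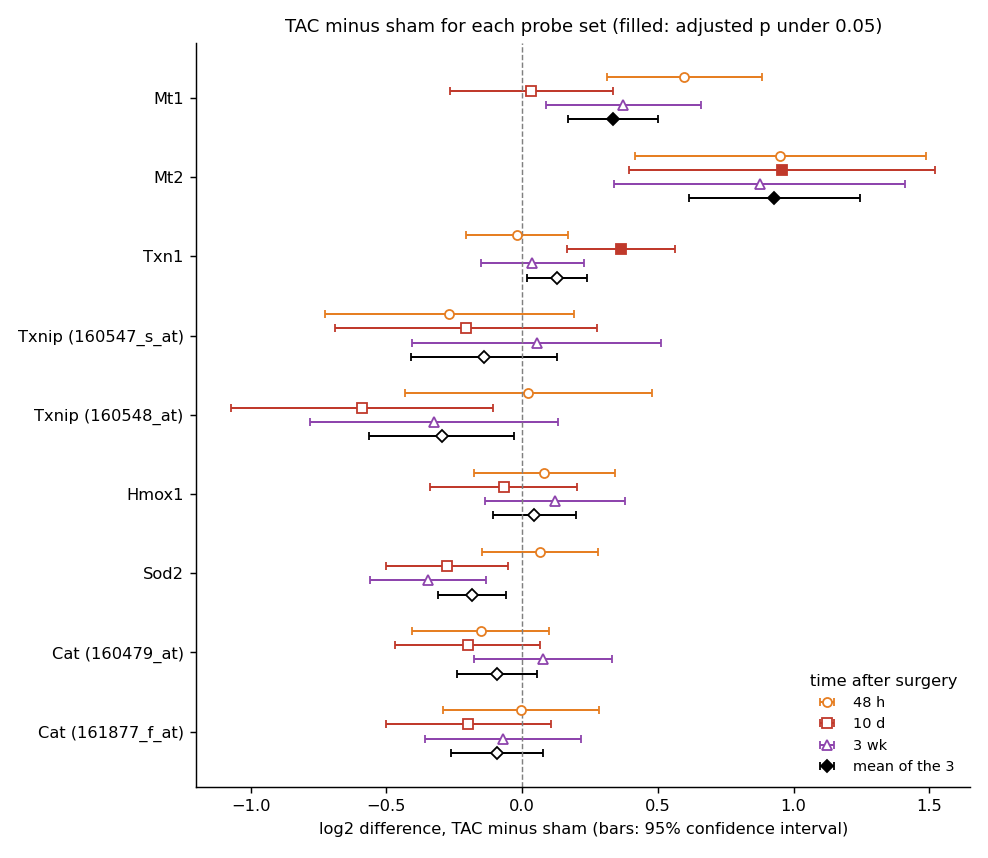
TAC minus sham in log2 units (horizontal axis) for each of 9 member probe sets (rows), with 95% confidence intervals, at 48 h (circles), 10 d (squares), 3 wk (triangles) and averaged over the 3 durations (diamonds). Filled symbols mark an adjusted p under 0.05: at single durations these are Mt2 and Txn1 at 10 d, and the Mt2 symbols lie at 0.95, 0.96 and 0.88.

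Mt2 encodes metallothionein 2. At 48 h its intensity was 30558, 18027, 19428, 14153 and 9338 in TAC arrays, against 8485, 7615, 12409.6 and 7415 in sham arrays. In TAC arrays 4 of 5 lay above every sham array, and TAC replicate 5 lay within the sham range. The difference was 0.95 (SE 0.26, 95% interval 0.42 to 1.49, unadjusted p = 0.00116 from limma, adjusted p = 0.236), which is not a call. At 10 d Mt2 rose 1.94-fold, with 15043, 14547, 14892 and 15391 in TAC arrays and 7659.7, 8875, 7556 and 6866 in sham arrays. The groups did not overlap, as for 15.7% of all probe sets at 10 d, and the 4 TAC arrays had an SD of 0.03 in log2 units. The log2 difference was 0.96 (SE 0.27, limma adjusted p = 0.0408). At 3 wk Mt2 gave 6722, 10076, 17707, 17198 and 17401 in TAC arrays, against 8737, 6173, 6473 and 7021 in sham arrays. Here TAC replicate 1 lay within the sham range, and the other 4 TAC arrays above it. The difference was 0.88 (SE 0.26, limma adjusted p = 0.0507), just outside the threshold.

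The Mt2 differences at the 3 durations were not shown to differ, and the 10 d call did not hold under every setting. The change of the TAC effect was 0.01 for 10 d minus 48 h (95% interval -0.77 to 0.78) and -0.08 for 3 wk minus 10 d (95% interval -0.86 to 0.70). The 10 d call was lost when any of the 8 arrays at 10 d was left out (0.90 to 1.03, limma adjusted p = 0.0577 to 0.102). With scan day as a term, which leaves the comparison to the 7 arrays scanned together, the 10 d difference was 0.94 (adjusted p = 0.069). Fitting the 10 d arrays alone gave the same 0.96 with adjusted p = 0.000171. At 3 wk Mt2 was called without TAC replicate 1 (1.11, adjusted p = 0.00562) or TAC replicate 2 (0.97, adjusted p = 0.0459). Without each of the other 7 arrays at 3 wk in turn it was not called (0.76 to 0.98, adjusted p = 0.0525 to 0.153). With scan day as a term it read 0.75 at 3 wk (adjusted p = 0.392), from the 5 arrays of 1 scan day. The average of the 3 differences, a contrast chosen after the values were seen, was 0.93 (SE 0.15, 1.90-fold, limma adjusted p = 0.00021), in a comparison where 10.4% of all probe sets were called. That average was 0.88 with scan day as a term (adjusted p = 0.0038) and 0.86 to 1.01 with each of the 26 arrays left out in turn.

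**Figure D2:**
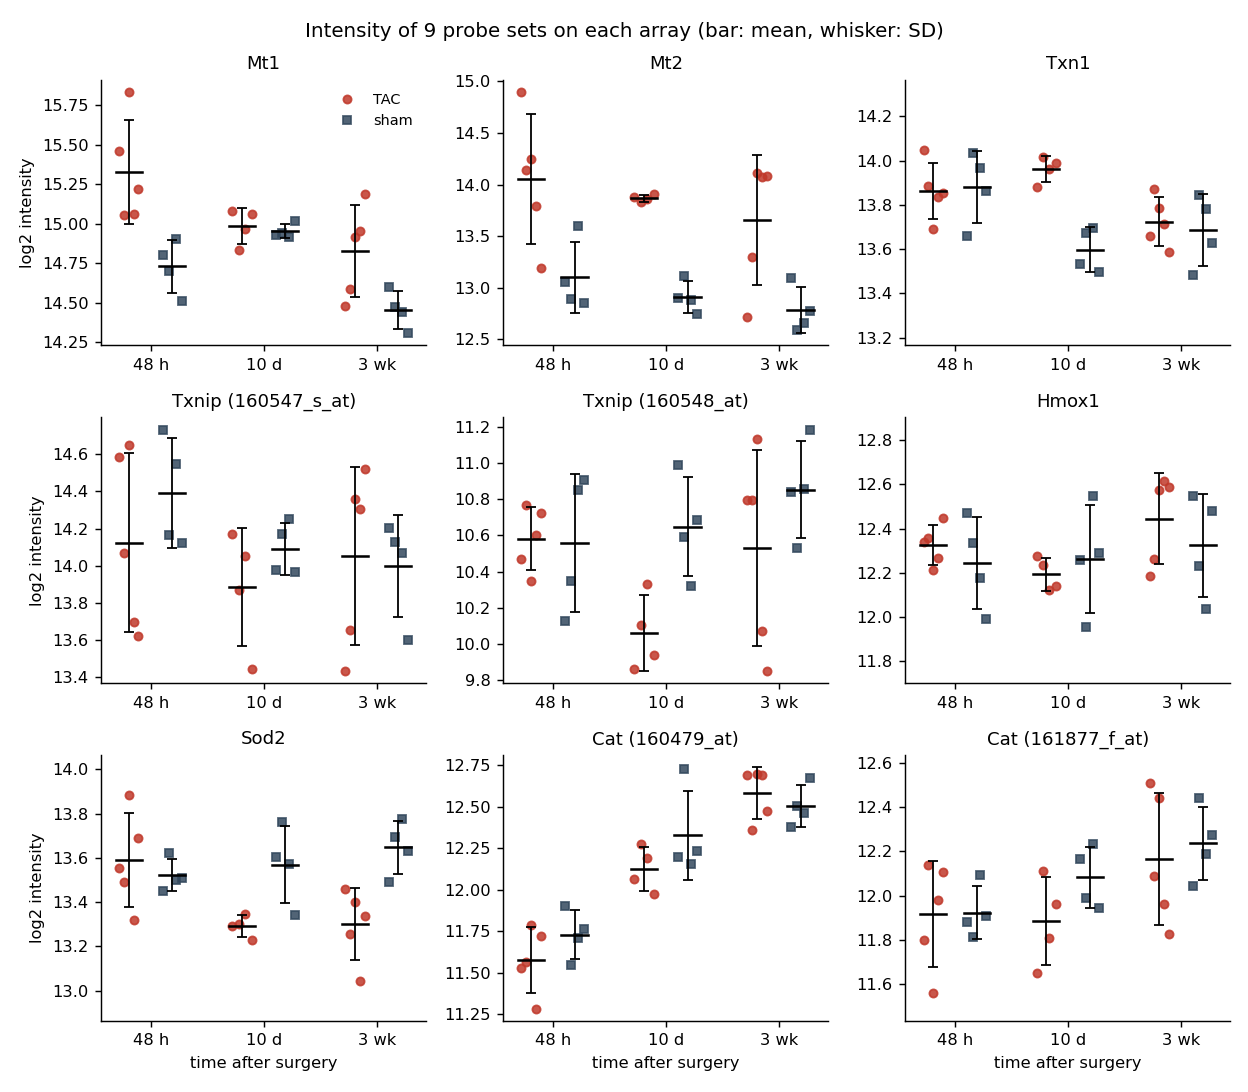
Log2 intensity (vertical axes) of the 9 member probe sets on every array, TAC as circles left of sham as squares at each time after surgery (horizontal axes), with group means (bars) and SDs (whiskers). Mt2 at 10 d, Txn1 at 10 d and Mt1 at 48 h have all TAC arrays above all sham arrays, Sod2 at 3 wk has every TAC array below, and Cat (160479_at) is higher at the later times in both TAC and sham arrays.

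Mt1, the neighbouring metallothionein gene, differed most between TAC and sham at 48 h and was not called at any single duration. Its 48 h intensity was 45129, 34049, 58424, 34235 and 38213 in TAC arrays, against 28623, 26693, 30596 and 23334 in sham arrays. All 5 TAC arrays exceeded the highest sham array, as for 1.15% of probe sets at 48 h (2.29% in either direction). The difference was 0.60 (SE 0.14, 1.51-fold, limma adjusted p = 0.131). At 10 d TAC arrays gave 34584, 29215, 32065 and 34151 and sham arrays 31219, 31521, 30888 and 33112. These ranges overlap on both sides, and the difference was 0.03 (95% interval -0.27 to 0.33, adjusted p = 0.931; -0.02 after quantile normalization). At 3 wk Mt1 read 22868, 24659, 30973, 31789 and 37415 in TAC arrays, against 24782, 22715, 22249.8 and 20287 in sham arrays. TAC replicates 3, 4 and 5 lay above all sham arrays while replicates 1 and 2 lay among them. The difference was 0.37 (SE 0.14, limma adjusted p = 0.117), and it was 0.46 without TAC replicate 1 (adjusted p = 0.0477). Without each of the other 8 arrays at 3 wk in turn it was 0.28 to 0.43 and not a call (adjusted p = 0.0893 to 0.296). With scan day as a term it was 0.21 (adjusted p = 0.726), from the 5 arrays of 1 scan day.

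The Mt1 effect at 10 d was lower by 0.56 than at 48 h (SE 0.20, unadjusted p = 0.00962 from limma), and with an adjusted p of 0.301 the durations were not shown to differ. Of all probe sets 0.0959% passed that comparison and 0.0274% the comparison of 3 wk with 10 d, and none of the 9 member probe sets passed either. The average Mt1 difference over the 3 durations was 0.33 (SE 0.08, limma adjusted p = 0.00804), and 0.27 with scan day as a term (adjusted p = 0.0831). Between sham groups Mt1 read -0.50 at 3 wk against 10 d (SE 0.15, adjusted p = 0.0617). Mt1 and Mt2 are close relatives in sequence, so their probe sets may share signal, which was not tested. In the order of group means Mt1 stood highest in TAC hearts at 48 h (15.33 ± 0.33 log2 units, SD, n = 5) and lowest in sham hearts at 3 wk (14.45 ± 0.12, SD, n = 4), and each group's range overlapped that of its neighbour in the order. For Mt2 the 3 TAC means all stood above the 3 sham means, with no gap between neighbours larger than the larger of their SDs.

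Txn1, which encodes cytosolic thioredoxin, rose 1.29-fold at 10 d and was not called at the other durations. Its 10 d intensity was 15081, 16590.5, 15934 and 16259.6 in TAC arrays, against 11838, 13059.9, 13239 and 11539 in sham arrays. The groups did not overlap, as for 15.7% of all probe sets at 10 d, and the difference was 0.36 (SE 0.10, limma adjusted p = 0.0283). The call held under all 11 other settings, with the highest adjusted p, 0.0467, with scan day as a term, and leaving out TAC replicate 2, 3 or 4 or sham replicate 1 or 4 at 10 d ended the call (0.33 to 0.37, adjusted p = 0.0656 to 0.091). At 48 h Txn1 gave 16927, 15149.6, 13231, 14622 and 14794 in TAC arrays, against 12957, 16765, 16001 and 14896 in sham arrays. At 3 wk it gave 12930.4, 14968, 14139, 13431 and 12298 in TAC arrays, against 11451, 14728, 14100.2 and 12664 in sham arrays. TAC and sham arrays were mixed at both of these durations, with differences of -0.02 (95% interval -0.21 to 0.17) at 48 h and 0.04 (95% interval -0.15 to 0.23) at 3 wk.

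The TAC effect on Txn1 was higher by 0.38 at 10 d than at 48 h (SE 0.13, unadjusted p = 0.00816, adjusted p = 0.289), so the durations were not shown to differ. Sham hearts at 10 d read lower than sham hearts at 48 h by 0.28 (SE 0.10, limma adjusted p = 0.0368), in a comparison where 21.7% of all probe sets were called. That sham call was lost after quantile normalization (-0.19, adjusted p = 0.171) and without an intensity trend, and also without sham replicate 1 or 4 at 10 d or sham replicate 2, 3 or 4 at 48 h (-0.29 to -0.23, adjusted p up to 0.12). TAC hearts at 10 d had the highest mean of the 6 groups (13.96 ± 0.06 log2 units, SD, n = 4) and sham hearts at 10 d the lowest (13.60 ± 0.10, SD, n = 4). Neighbouring groups in the order of means overlapped for every member probe set, except Cat (160479_at) between TAC hearts at 10 d and sham hearts at 48 h.

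Txnip, the inhibitor of thioredoxin, was not called on either probe set. Its probe sets both read lower in TAC hearts at 10 d and differed in sign at 48 h and 3 wk. On 160547_s_at the 48 h intensity was 24598, 17209, 25658, 13275 and 12604 in TAC arrays, against 27208, 18364, 23975 and 17841 in sham arrays. At 10 d this probe set gave 18416, 14982, 16974 and 11174 in TAC arrays, against 16125, 18421, 19503 and 16006 in sham arrays. At 3 wk it gave 11076, 12884, 21016, 20213 and 23497 in TAC arrays, against 18886, 17921, 17160.0 and 12413 in sham arrays. TAC arrays spread wider than sham arrays at each duration, with an SD of 0.48 against 0.30 log2 units at 48 h, 0.32 against 0.14 at 10 d and 0.48 against 0.27 at 3 wk, a difference in spread that was not tested. The differences were -0.27, -0.21 and 0.05 (SE 0.22 to 0.24, limma adjusted p = 0.675 to 0.948). On 160548_at the differences were 0.02 at 48 h, -0.59 at 10 d (SE 0.23, adjusted p = 0.14) and -0.32 at 3 wk. At 10 d that probe set gave 927, 1102, 1289 and 982 in TAC arrays, against 2032, 1545, 1280.2 and 1650.1 in sham arrays, with 3 of 4 TAC arrays below every sham array. With scan day as a term the 3 wk differences rest on the 5 arrays of 1 scan day. There the probe sets traded signs, to -0.28 on 160547_s_at and 0.21 on 160548_at.

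Hmox1, the inducible heme oxygenase, showed no call at any duration. Its intensity ranged from 4744 to 5592 in TAC arrays and from 4068 to 5682 in sham arrays at 48 h, from 4459 to 4966 in TAC arrays and from 3969.7 to 5981 in sham arrays at 10 d, and from 4657 to 6271 in TAC arrays and from 4204 to 5994 in sham arrays at 3 wk. TAC and sham arrays overlapped each time, although at 3 wk TAC replicates 3, 4 and 5 lay above every sham array. Differences were 0.08 (95% interval -0.18 to 0.34) at 48 h, -0.07 (95% interval -0.34 to 0.20) at 10 d and 0.12 (95% interval -0.14 to 0.38) at 3 wk, with limma adjusted p from 0.64 to 0.986. These intervals do not show that the levels were alike.

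Sod2, mitochondrial superoxide dismutase, read lower in TAC hearts at the later durations without a call. At 3 wk its intensity was 11271, 9796, 10830.2, 8434 and 10339.7 in TAC arrays, against 11517, 13268, 14016 and 12681 in sham arrays. Every TAC array lay below every sham array, as for 4.21% of probe sets at 3 wk (8.48% in either direction). The difference was -0.35 (SE 0.10, limma adjusted p = 0.0511). It was a call after quantile normalization (-0.39, adjusted p = 0.0204) and without sham replicate 1 (-0.40) or TAC replicate 1 (-0.39) or 3 (-0.37), among other settings. Without each of the other 6 arrays at 3 wk in turn it was not a call (-0.36 to -0.28, adjusted p = 0.0755 to 0.168). With scan day as a term the difference was -0.36 (adjusted p = 0.279), from the 5 arrays of 1 scan day. At 10 d Sod2 gave 10040.1, 10090.1, 10418 and 9595 in TAC arrays, against 12442, 13894, 12194 and 10369.6 in sham arrays. Of the TAC arrays 3 of 4 lay below every sham array, and the difference was -0.28 (SE 0.11, limma adjusted p = 0.138). At 48 h the difference was 0.07 (95% interval -0.15 to 0.28), with TAC arrays from 10234 to 15139 around the sham arrays at 11209 to 12624. The effect at 3 wk was lower by 0.42 than at 48 h (unadjusted p = 0.00893, adjusted p = 0.273), and no probe set of the array was called in that comparison (limma; 819 had an unadjusted p under 0.05). The average over the 3 durations was -0.19 (SE 0.06, limma adjusted p = 0.05002). It was a call under 6 of 10 other settings (limma adjusted p = 0.0273 to 0.0469) and without 6 of the 26 arrays in turn. At 3 wk the 9 cardiac muscle marker genes also all read lower in TAC hearts, with a median of -0.35 and 0 called, and summed to 847613 to 1015226 in TAC arrays and 1033997 to 1297679 in sham arrays, which do not overlap. Their part in the Sod2 values was not tested.

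Cat did not differ between TAC and sham hearts by a call but read higher in later sham hearts on 1 of its probe sets. On 160479_at the 48 h intensity was 2948, 3028, 3539, 2490.1 and 3377 in TAC arrays, against 3822, 2985, 3340.2 and 3478 in sham arrays. At 10 d it was 4277, 4962, 4680.3 and 4031 in TAC arrays, against 4694, 6788, 4567 and 4806 in sham arrays. At 3 wk it was 6609.7, 5258, 6641, 6612 and 5694 in TAC arrays, against 5329.6, 5814, 5639 and 6546 in sham arrays. TAC and sham arrays overlapped at each duration, with differences of -0.15, -0.20 and 0.08 (limma adjusted p = 0.408 to 0.948). The lowest 10 d or 3 wk array of either kind, at 4031, lay above the highest 48 h array, at 3822.

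Sham hearts read higher than at 48 h by 0.60 at 10 d (SE 0.13, limma adjusted p = 0.00166) and by 0.78 at 3 wk (SE 0.13, adjusted p = 6.63e-05) on this Cat probe set. Of all probe sets 21.7% and 33.3% were called in these comparisons. Both Cat calls held without each array in turn (0.47 to 0.66 and 0.72 to 0.84). The other probe set, 161877_f_at, read 0.16 at 10 d (adjusted p = 0.472) and 0.31 at 3 wk (adjusted p = 0.105) between the same sham groups and was not called. Since no known scan day held more than 1 duration, time after surgery and scan day cannot be told apart for Cat or for the sham difference of Txn1. Sham hearts at 3 wk against 10 d gave no member a call, where 2.86% of all probe sets were called.

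Mt1, Mt2 and 1 of the 2 Txnip probe sets, 160547_s_at, varied together among arrays of the same group, while the other Txnip probe set did not follow them. Each array's deviation from its group mean was taken, and the 21 pairs of members were compared over 26 arrays, with Txnip and Cat at the probe set of highest mean and p-values from permuting arrays within groups. Mt1 and Txnip correlated at r = 0.779 (rho 0.785, permutation p = 0.00062, adjusted over 21 pairs 0.00651), and Mt2 and Txnip at r = 0.766 (rho 0.709, permutation p = 0.00062, adjusted 0.00651). Mt1 and Mt2 correlated at r = 0.641 (permutation p = 0.0247, adjusted 0.173) and rho = 0.735 (permutation p = 0.00177, adjusted 0.0167). Without the 2 arrays farthest from the median these r values were 0.727 for Mt1 and Txnip, 0.669 for Mt2 and Txnip, and 0.687 for Mt1 and Mt2. No other pair passed the adjustment in either measure.

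The other Txnip probe set, 160548_at, taken in its place as an alternative added after the values were seen, gave r = -0.512 with Mt1 (rho -0.464), -0.22 with Mt2 (rho -0.161) and -0.468 with 160547_s_at (rho -0.464). The relation therefore holds for 1 Txnip probe set and turns its sign on the other, and which of them follows Txnip RNA was not tested. The Cat probe sets likewise did not track each other (r = 0.065), and Cat 161877_f_at gave r = -0.637 with Mt1. The deviation of an array's median intensity from its group mean correlated at -0.318 with Mt1, -0.113 with Mt2, -0.414 with Txnip 160547_s_at, 0.417 with Txnip 160548_at and 0.520 with Cat 161877_f_at. Its part in these relations was not tested, and all values of this paragraph are descriptions over 26 arrays.

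The positive relation of 160547_s_at was not seen at each duration. For Mt1 and Txnip r was 0.80 at 48 h, -0.152 at 10 d and 0.960 at 3 wk, and for Mt2 and Txnip it was 0.798, 0.104 and 0.857. For Mt1 and Mt2 it was 0.492, -0.016 and 0.876. All 48 h arrays shared 1 scan day. At 10 d the SDs in TAC and sham arrays were 0.11 and 0.04 log2 units for Mt1 and 0.03 and 0.15 for Mt2. For Txnip 160547_s_at they were 0.32 and 0.14. The part of scan day or of spread in these relations was not tested. At 3 wk TAC replicates 1 and 2 were the lowest TAC arrays for Mt1, Mt2, Txnip (160547_s_at) and Hmox1. TAC replicate 3 shared their scan day and lay above the TAC mean by 0.09 for Mt1, 0.46 for Mt2, 0.305 for Txnip and 0.13 for Hmox1. The 5 arrays of that day are too few for a value of their own. Quantile normalization, an alternative added after the values were seen, gave 0.804, 0.762 and 0.722 for the pairs Mt1 and Txnip, Mt2 and Txnip, and Mt1 and Mt2. The plot of deviations shows each array.

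**Figure D3:**
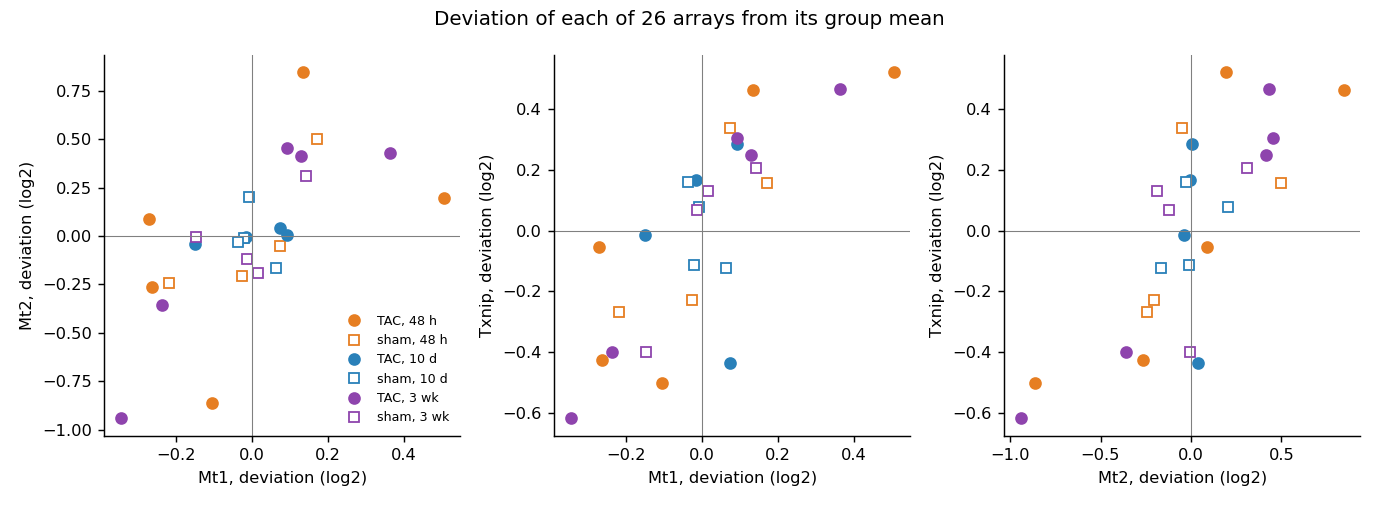
Deviation of each of 26 arrays from its group mean in log2 units, for Mt1 and Mt2 (left), Mt1 and Txnip 160547_s_at (middle) and Mt2 and Txnip 160547_s_at (right), with filled circles for TAC and open squares for sham arrays, coloured by time after surgery. Points run from lower left to upper right in all 3 panels (r = 0.641, 0.779 and 0.766), while the 10 d arrays lie close to 0 for Mt1.

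Over all 26 arrays, group differences included, the gene with the pattern most like Mt1 was Mt2 (r = 0.732), followed by Ephx1 (0.671), a microsomal epoxide hydrolase, and Myom1 (0.666), a protein of the sarcomere M-band. For Mt2 the nearest were Cyb561 (0.816), Serpina3n (0.774), an acute-phase serine protease inhibitor, and Shroom3 (0.764). Serpina3n read 0.95, 0.45 and 0.62 at 48 h, 10 d and 3 wk, with no call. For Txn1 they were Mrps34 (0.740), Cnbp (0.731) and Arpc2 (0.728). For Txnip they were Htatsf1 (0.684), Tk1 (0.680) and Cebpd (0.635). For Hmox1 they were Sfrp1 (0.590), Fam171a1 (0.585) and Elp5 (0.566). For Sod2 they were the complex I subunits Ndufa8 (0.815) and Ndufs1 (0.814) and the fatty acid oxidation enzyme Acaa2 (0.780). Cat (160479_at) lay nearest to Gpx4 (0.913), a glutathione peroxidase, Serinc1 (0.906) and Pip4k2c (0.896). Within groups these Cat values were 0.573, 0.495 and 0.283. All arrays share these groups and scan days, and the correlations are descriptions.

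Genes that act beside the members were read from 7 lists, each gene by its tested probe set of highest mean, and are given as counts with the median difference. Over all 5564 genes the median difference was -0.01, -0.02 and 0.00 at 48 h, 10 d and 3 wk, and 0.0539%, 5.03% and 4.82% of genes were called. Of these genes 3.04% were higher and 1.99% lower at 10 d, and 2.93% were higher and 1.89% lower at 3 wk. Metal handling was a list of other metallothioneins, zinc and copper transporters and chaperones, and the regulator Mtf1. In it 14 genes were tested, and 0, 2 and 1 were called higher and none lower (medians 0.16, 0.15 and 0.13). Cp, ceruloplasmin, the copper-carrying ferroxidase, rose by 0.65 at 10 d (SE 0.17, limma adjusted p = 0.0288) and 0.77 at 3 wk (adjusted p = 0.00704), and read 0.64 at 48 h (adjusted p = 0.22). Atox1, a copper chaperone, rose by 0.49 at 10 d (SE 0.14, adjusted p = 0.0371). Mtf1 itself was not called (-0.41, 0.59 and -0.04), nor was the metallothionein Mt3 (0.21, -0.12 and -0.24).

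In the thioredoxin and glutaredoxin list 13 genes were tested, and 1 was called lower at 3 wk and none otherwise (medians -0.06, -0.01 and -0.12). That gene was Txnl1, a thioredoxin-like protein, which fell by 0.53 (SE 0.14, limma adjusted p = 0.0292). In heme, iron and bilirubin handling 15 genes were tested, with medians of -0.03, -0.06 and -0.12. Only Alad, the second enzyme of heme synthesis, was called in that list, and it fell by 0.42 at 3 wk (SE 0.12, adjusted p = 0.03). The superoxide and peroxide list also holds peroxisome and other proteins. Of its 14 tested genes none was called (medians -0.06, -0.12 and -0.14), and 5, 6 and 6 read above 0. The brightest were Gpx3, plasma glutathione peroxidase, at 0.24, 0.41 and 0.10, and Sod1, cytosolic superoxide dismutase, at 0.09, -0.14 and -0.17. Pex11a, a peroxisome protein, read -0.812, -0.645 and -0.631 (limma adjusted p = 0.22, 0.103 and 0.0919). Its TAC arrays all lay below its sham arrays at each duration. Of all probe sets 2.29%, 15.7% and 8.48% did not overlap in either direction.

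Among 18 tested Nrf2 factors and glutathione synthesis genes only Park7, a redox-sensitive chaperone, was called, and it rose by 0.48 at 10 d (SE 0.13, limma adjusted p = 0.0288; list medians 0.01, 0.04 and 0.04). Of 15 glucocorticoid and starvation responsive genes none was called (medians -0.04, 0.02 and -0.11), and 7, 8 and 6 of them read above 0. The brightest were Pdk4, which restrains glucose oxidation, at 0.04, -0.37 and -0.997 (adjusted p = 0.0758 at 3 wk), and the phosphatase Dusp1, at 0.23, 0.30 and -0.54. The list also holds Serpina3n, at 0.95, 0.45 and 0.62, and Fkbp5, at 0.55, -0.10 and 0.68 (limma adjusted p = 0.059 for Fkbp5 at 3 wk). Of 11 glucose sensing and uptake genes 0, 3 and 1 were called lower and none higher (medians -0.07, -0.20 and -0.15). Slc2a4, the insulin-responsive glucose transporter, fell by 0.46 at 10 d (adjusted p = 0.0188), and Pfkm, muscle phosphofructokinase, fell by 0.45 at 10 d (adjusted p = 0.0362) and by 0.49 at 3 wk (adjusted p = 0.0134). Usf2, a factor that binds E-boxes, fell by 0.84 at 10 d (SE 0.23, adjusted p = 0.0362), with TAC and sham arrays overlapping. The plot of pathway genes shows each list.

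**Figure D4:**
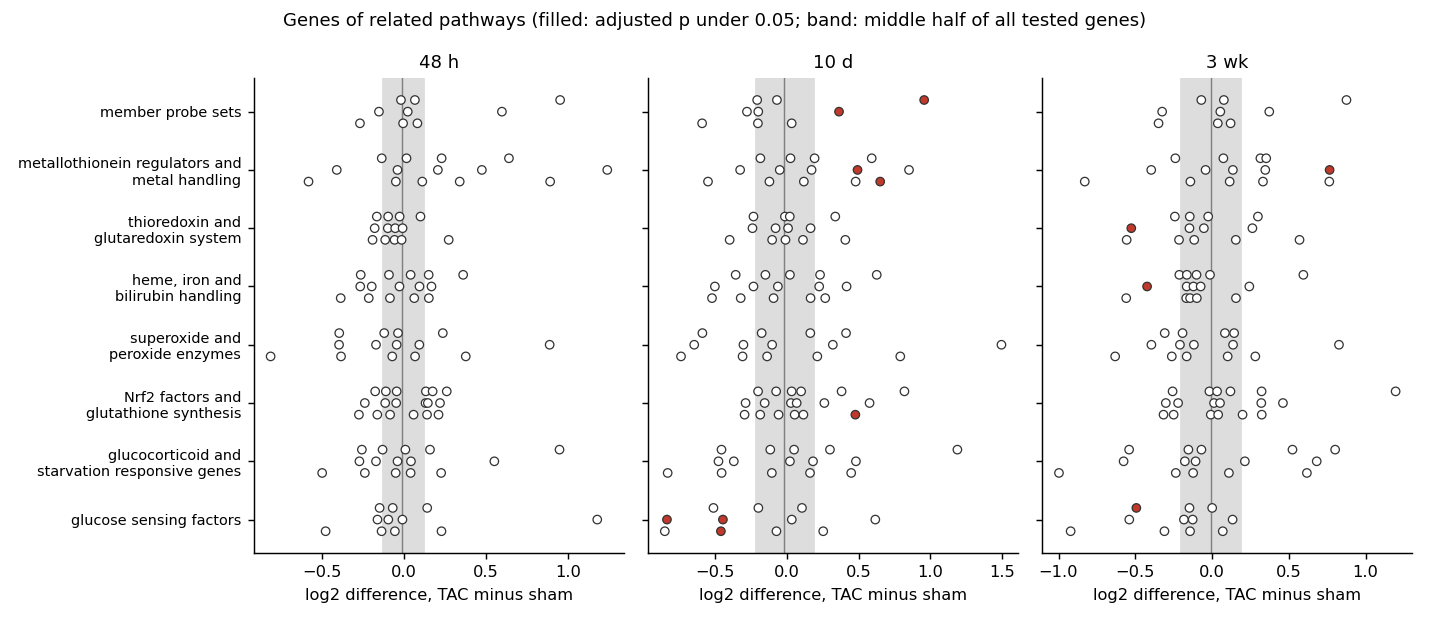
TAC minus sham in log2 units (horizontal axes) for the 9 member probe sets (top row) and the tested genes of 7 pathway lists (lower rows) at 48 h, 10 d and 3 wk, 1 point a gene, filled where adjusted p is under 0.05, over a grey band from the lower to the upper quartile of all tested genes. Filled points lie to the right for metal handling and to the left for glucose sensing at 10 d, and no point is filled at 48 h.

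Markers of other cells were called at 10 d, where Mt2 and Txn1 were called, and also at 3 wk, where no member was called. At 10 d 7 of 9 tested macrophage and monocyte markers were called higher, and the 12 on the array summed to 63457 to 69930 in TAC arrays and 45093 to 47606 in sham arrays. At 3 wk 4 of 9 were higher, with sums of 49109 to 66166 in TAC arrays and 43668 to 50548 in sham arrays, and at 48 h 0 of 9, with sums of 49071 to 58471 in TAC arrays and 44610 to 49956 in sham arrays. Of 10 fibroblast markers 0, 4 and 5 were called higher, with sums of 163378 to 223578 in TAC arrays and 124391 to 137274 in sham arrays at 10 d. Each marker was counted by its tested probe set of highest mean, and other probe sets could differ. Col1a2 counts as not called (-0.15, -0.39 and -0.43), and its other probe set read 0.53, 1.78 and 1.38. Mfap5 was called at 10 d and 3 wk, and its other probe set read -0.06, -0.12 and -0.50. None of these marker genes was at 0 on every array of a group, and their part in the Mt2, Mt1, Txn1 and Sod2 values was not tested. In whole tissue, fewer cells of a type and less RNA per cell cannot be told apart.

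The other marker lists gave 3 of 10 endothelial and 1 of 7 smooth muscle and pericyte genes higher at 10 d, 1 of 9 cardiac muscle genes lower at 10 d and 0 at 3 wk, and no call among the 5 erythroid, 4 adipocyte, 2 neutrophil and 2 liver genes tested at any duration. Erythroid genes summed to 126790 to 209577 in TAC arrays and 125402 to 187072 in sham arrays at 10 d. The RNA integrity ratios (3′ over 5′ signal of Gapdh and of Actb) gave exact permutation p = 0.143 to 0.886 between TAC and sham arrays. From array to array within groups, Txn1 followed the Actb ratio at r = 0.448 (rho 0.512) and the Gapdh ratio at 0.371 (rho 0.344), and Hmox1 followed the Gapdh ratio at r = -0.549 (rho -0.531), as descriptions over 26 arrays. For the other 7 member probe sets r lay between -0.245 and 0.370 with either ratio, and the part of RNA integrity in the member values was not tested.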

How the data were processed

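Total RNA of 26 mouse heart samples was read on 1 array type. The deposited table holds 1 intensity per probe set and array on a linear scale; the labels and headers used here name neither the summary of probes nor any scaling by the authors. The mean after trimming 2% at each end was 2501.81 to 2502.2 on every array. Values were used as deposited: those under the 20th percentile (167.9, log2 7.39) were set to it, log2 was taken, 66 control probe sets were left out of 12488, and the 7297 probe sets kept were those over the median, 880.1, in 4 or more arrays. The probe table given with the series names 1 gene for 10833 probe sets, several for 396 and none for 1193. The labels give groups and replicate numbers, and the deposited array description files give scan days.

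One limma model (version 3.58.1, R 4.3.3; lmFit, eBayes, trend on intensity) fitted 6 group means. It was tested on simulated data. Member pairs were tested in scipy 1.17.1 with 100000 permutations within groups. Alternatives were quantile and cyclic loess normalization, other floors and filters, no trend, array weights, fits of 1 duration alone, blocks by replicate number or by scan day, and each array left out. The scan day block left out the 2 arrays with no known scan day.

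The members and lists were chosen with earlier results of these data known. The rule for named genes takes all members, up to 4 called genes of each list (otherwise its 2 brightest), and the 3 genes most correlated with each member. Mtf1, Mt3, Fkbp5, Pex11a, Col1a2 and Mfap5 were named outside that rule. Same-numbered TAC and sham arrays showed no shared deviation (r = -0.131 to 0.032). The labels do not state whether numbers pair arrays, and with so few arrays a group these values cannot exclude it. Promoters came from RefSeq (GRCm38.p6), without Hmox1.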

Additional observations from a re-analysis of the deposited data

Results flagged for a closer look

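Cat (160479_at) had 1 array apart from the other 3 of its group: sham replicate 2 at 10 d read 6787.5, against 4567 to 4806 in the other sham arrays. It was the only such array among 54 groups of 4 or 5 arrays examined, 1 for each member probe set and group. Chance gives about 1 in 20, so this array is no more than chance gives. Without it the Cat difference between sham hearts at 10 d and 48 h was 0.47 (limma adjusted p = 0.0104), against 0.60 with it, and TAC against sham at 10 d read -0.07, against -0.20.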

How the results depend on the processing

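The average Mt2 difference over the 3 durations was called under all 10 other settings run for it (0.88 to 0.96) and without each of 26 arrays, whereas the 10 d call of Mt2 changed with the setting; the causes were not tested. The 10 d call of Txn1 held under all 11 other settings (0.35 to 0.379, adjusted p = 0.00943 to 0.0467) and was lost without any 1 of 5 arrays. At 10 d the number of member probe sets called was 1 in place of 2 with quantile normalization, no filter, no intensity trend, replicate number as a block or scan day as a block. Mt2 was the member lost each time (adjusted p = 0.0521, 0.096, 0.0637, 0.0567 and 0.069). At 3 wk it was 2 in place of 0 with quantile normalization, a floor at the 40th percentile or a filter at the 70th (Mt2 and Sod2), and 1 with cyclic loess, array weights or replicate number as a block (Sod2). For the average it was 1 in place of 2 with scan day as a block (Mt1 lost), and 3 with Sod2 added with quantile or cyclic loess normalization, a floor at the 40th percentile, a filter at the 70th, array weights or replicate number as a block (Sod2 adjusted p = 0.0273 to 0.0469). A pairing by replicate number was neither stated in the labels nor detected. As a block the numbers changed no member call beside Mt2 at 10 d and Sod2 at 3 wk and for the average.

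Over all probe sets, 48 h calls were 4, and 1 with no trend or only the groups compared, 8 with the replicate block and 7 with scan day. At 10 d they were 355, and 718 with array weights or 538 with only the groups compared. At 3 wk they were 345, and 127 with only the groups compared or 19 with scan day, where sham replicates 1 and 4 were left out. The change from 48 h to 10 d gave 7, and 4 with no trend, the change from 10 d to 3 wk 2, and 4 with no filter, and the average effect 761, and 361 with scan day.

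With each array left out, members called were 0 to 1 at 10 d, 0 to 3 at 3 wk and 2 to 3 for the average. Probe sets called were 1 to 8 at 48 h, 187 to 388 at 10 d, 168 to 451 at 3 wk, 4 to 22, 2 to 3 and 0 to 17 for the changes 10 d minus 48 h, 3 wk minus 10 d and 3 wk minus 48 h, 1275 to 1378, 94 to 160 and 2039 to 2172 for sham 10 d against 48 h, 3 wk against 10 d and 3 wk against 48 h, and 629 to 877 for the average.

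Signs turned only for differences that were not called. These were Mt1 at 10 d (-0.018, quantile), Cat (161877_f_at) at 48 h (0.006 quantile, 0.009 loess, 0.014 replicate block) and 3 wk (0.034 scan day), Txnip (160548_at) at 48 h (-0.011 array weights) and 3 wk (0.215 scan day), Txnip (160547_s_at) at 3 wk (-0.282 scan day), and Txn1 at 48 h (0 replicate block) and 3 wk (-0.043 scan day). With 1 array left out, signs turned within the ranges -0.091 to 0.033 (48 h) and -0.03 to 0.091 (3 wk) for Txn1, -0.08 to 0.209 for Txnip (160547_s_at) at 3 wk, -0.12 to 0.139 for Txnip (160548_at) at 48 h, -0.06 to 0.084 (48 h) and -0.155 to 0.015 (3 wk) for Cat (161877_f_at), -0.002 to 0.159 (48 h) and -0.171 to 0.026 (10 d) for Hmox1, and -0.007 to 0.134 for Sod2 at 48 h. All member intensities, 923.7 to 58423.9, lay above the filter value of 880.1, so no member value rests on the floor.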
